A study of Mus musculus with 12 samples.

Results

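Aire and Fezf2 are the transcripts described here, 2 of the 22154 genes measured on 12 Affymetrix 2.0 ST arrays of mouse thymic epithelium. Every probe set that the platform annotation gives to either gene was taken. This found 1 for each, 17242401 for Aire and 17303496 for Fezf2, with no other gene named for either of them. The cells were medullary thymic epithelial cells (mTEC) of C57BL/6 mice aged 4 weeks, sorted as live cells negative for CD45 and positive for Epcam and UEA, with little Ly51. The sort parted cells with much surface MHC class II, called mTEChi, from cells with little of it, called mTEClo. The 4 genotypes were Aire+/+, Aire-/-, Brg1+/+ and Brg1-/-, with 2 arrays each for mTEChi and 1 array each for mTEClo. The labels give neither the alleles, nor what drove any deletion, nor whether the arrays of a group came from separate or pooled mice, so a p-value here speaks of the spread between these arrays alone, which may be technical.

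Aire is a nuclear protein of mTEC that turns on transcription of a large set of genes otherwise restricted to other tissues, which shows these self antigens to developing T cells. Fezf2 is a zinc finger transcription factor, first studied in projection neurons of the cerebral cortex, that also drives tissue-restricted genes in mTEC, many of them different from those of Aire. Both are known as genes of the mature mTEC, where RANK, CD40 and the lymphotoxin beta receptor signal through NF-kB. Brg1, encoded by Smarca4, is an ATPase of the BAF chromatin remodelling complexes. The Aire line and the Brg1 line ask what each protein does to transcription in these cells, and here the question is what happened to the transcripts of Aire and Fezf2 themselves.

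The stretches before the start sites are shown because the core promoter motifs found in them differ between both genes. The windows below hold the 250 bases before the RefSeq start on GRCm38.p6, both on the minus strand, printed from 5′ to 3′ with motifs found by a letter search in capitals. The Aire window is chr10:78043611-78043860 and the Fezf2 window is chr14:12345866-12346115.
Aire upstream window: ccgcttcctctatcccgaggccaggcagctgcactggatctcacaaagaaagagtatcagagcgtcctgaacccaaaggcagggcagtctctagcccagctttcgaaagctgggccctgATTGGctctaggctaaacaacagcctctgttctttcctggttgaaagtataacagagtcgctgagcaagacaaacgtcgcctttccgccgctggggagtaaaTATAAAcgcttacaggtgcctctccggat
Fezf2 upstream window: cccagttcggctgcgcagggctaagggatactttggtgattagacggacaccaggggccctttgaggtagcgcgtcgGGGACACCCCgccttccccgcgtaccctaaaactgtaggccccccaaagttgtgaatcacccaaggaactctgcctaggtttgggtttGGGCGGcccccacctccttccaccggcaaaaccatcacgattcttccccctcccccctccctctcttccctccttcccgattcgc
The capitals in the Aire window mark a CCAAT box, here as its reverse complement ATTGG, 131 bases before the start, and a TATA box (TATAAA) 29 bases before it. The capitals in the Fezf2 window mark an NF-kB motif 173 bases before the start and a GC box (GGGCGG) 85 bases before it. None of these 4 motifs was present in both windows, whichever strand was read. Of all 32851 windows of this length in the table, 12.4% held the TATA box, 33.8% the CCAAT box, 32.7% the GC box and 7.25% the NF-kB motif. An E-box (CANNTG), not in capitals because it is short, occurred at 2 places in the Aire window and at 0 in the Fezf2 window, against 66.2% of all windows with at least 1. The Fezf2 window had 14 CpG dinucleotides and 61.2% G and C, the Aire window 11 and 53.2%, and the medians over all windows were 6 and 52.4%. These matches describe the letters of the windows and show no binding.

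The median over all probe sets ran from 5.07 to 5.32 between arrays (log2). Over all genotypes, 3.67% of all genes were called higher and 2.11% lower in mTEChi by the test described below. Of 11 measured maturation markers of mTEC, 5 were called higher, among them Cd80, from 6.18 to 6.96 in mTEClo and from 8.96 to 10.45 in mTEChi. None of the 7 measured genes of medullary epithelium was called, and Epcam lay at 8.41 or more on every array. Of 7 measured genes of tuft-like mTEC, 6 were lower in mTEChi, such as Il25, a tuft cell cytokine, from 8.04 to 8.70 in mTEClo and from 6.14 to 6.71 in mTEChi. None of 6 measured genes of immature or low mTEC and none of 8 of cornified mTEC was called. Of 8 measured cortical epithelium markers, 2 were higher (Ccl25 and Tbata) and 1 lower (Cxcl12) in mTEChi. The arrays numbered 2, which exist only for mTEChi, differed from those numbered 1 across many genes, and the labels do not say what the number marks.

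Aire transcript was clearly higher in mTEChi than in mTEClo, and Fezf2 followed with a smaller difference. On the log2 scale, the mTEChi arrays numbered 1 and 2 read 8.04 and 8.80 for Aire in Aire+/+, 9.01 and 9.73 in Aire-/-, 7.96 and 9.50 in Brg1+/+ and 8.35 and 8.75 in Brg1-/- cells. In mTEClo it measured 6.43 in Aire+/+, 6.72 in Aire-/-, 6.53 in Brg1+/+ and 6.82 in Brg1-/- cells. The lowest mTEChi array stood above the highest mTEClo array by more than the whole range of the mTEClo arrays. The mTEChi mean was 8.77 ± 0.641 (SD, n = 8) and the mTEClo mean 6.63 ± 0.177 (SD, n = 4).

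For Fezf2 the same mTEChi arrays read 8.31 and 8.83 in Aire+/+, 8.52 and 8.88 in Aire-/-, 8.38 and 8.97 in Brg1+/+ and 8.39 and 8.69 in Brg1-/- cells. In mTEClo it measured 7.63 in Aire+/+, 7.57 in Aire-/-, 7.64 in Brg1+/+ and 7.70 in Brg1-/- cells. Here too the cell types did not overlap, and the 4 mTEClo arrays were nearly level. The mTEChi mean was 8.62 ± 0.255 (SD, n = 8) and the mTEClo mean 7.64 ± 0.053 (SD, n = 4). An array gives no absolute amounts, so the level of one probe set is not set against that of the other.

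**Figure D1:**
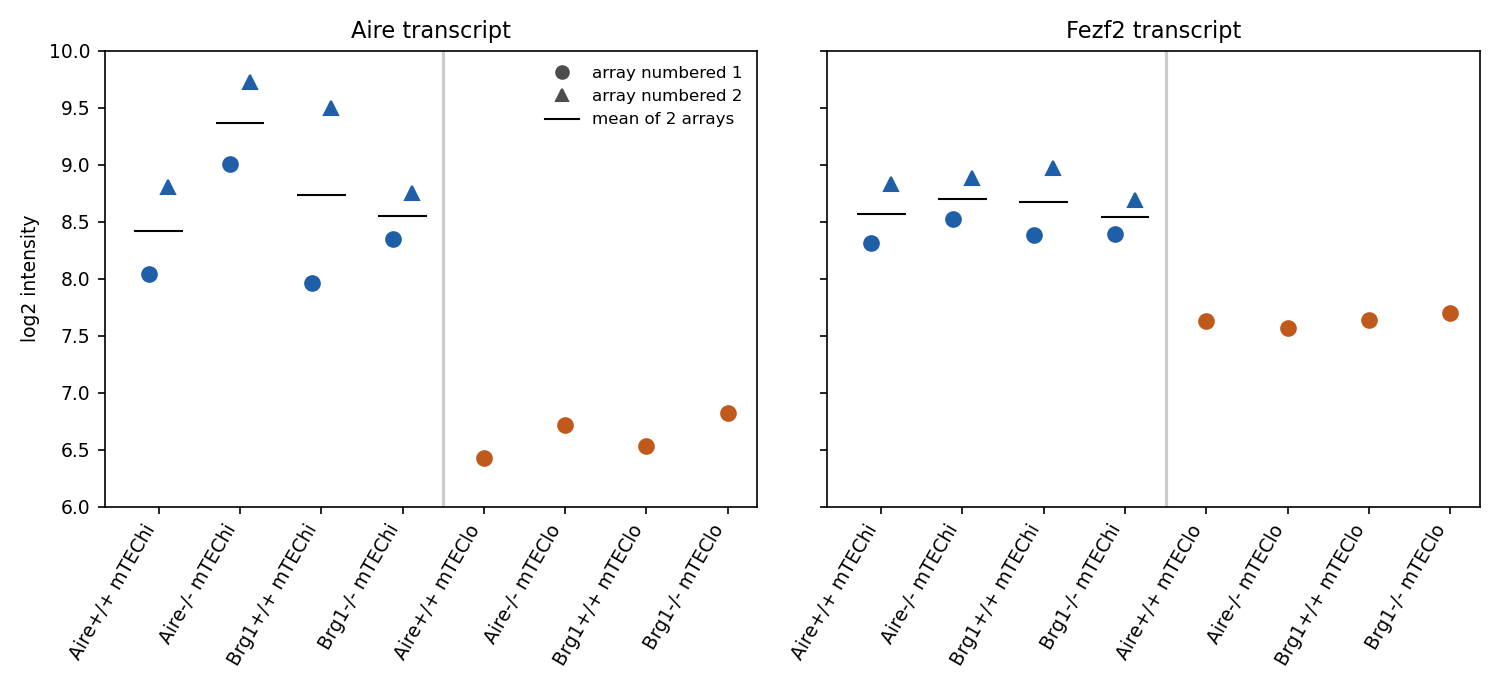
Log2 intensity of Aire (left) and Fezf2 (right) on each of the 12 arrays, by genotype and cell type. Circles are arrays numbered 1, triangles arrays numbered 2, and lines the mean of 2 arrays. All 8 mTEChi values lie above all 4 mTEClo values for both genes, and the triangle lies above the circle in each mTEChi group.

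Averaged over the 4 genotypes, Aire was 2.14 higher in mTEChi on the log2 scale (SE 0.33), which is 4.42-fold with a 95% interval from 2.59 to 7.53, and this passed limma's test (adjusted p = 0.0101 over all genes). By the size of this rise Aire ranked 206 of 22154 genes. Fezf2 was 0.99 higher (SE 0.197), which is 1.98-fold with an interval from 1.44 to 2.72 (limma, adjusted p = 0.0286), and it ranked 959. All mTEChi arrays lay above all mTEClo arrays for 3.63% of genes, Aire and Fezf2 among them. The Fezf2 call was lost when any of 4 single arrays was left out, with adjusted p = 0.0622 without Aire+/+ mTEChi 2, 0.0722 without Aire-/- mTEChi 2, 0.0564 without Brg1-/- mTEChi 1 and 0.0744 without Brg1-/- mTEChi 2, while the Aire call held in each of these fits. All of these fits leave out the array number, and every mTEClo array is numbered 1. With the number as a block within each line, the rise over all genotypes was smaller. It was then 1.72 for Aire (SE 0.202, limma adjusted p = 0.00209) and 0.77 for Fezf2 (SE 0.141, limma adjusted p = 0.0144).

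With the wild types alone and no block, the differences were 2.10 for Aire (SE 0.467) and 0.99 for Fezf2 (SE 0.278). Neither passed (limma, adjusted p = 0.0743 and 0.155), where 1.93% of genes were called higher and 0.632% lower. With the array number as a block the wild-type rise was 1.67 for Aire and 0.77 for Fezf2. Aire then passed, with limma's adjusted p = 0.0123 for a number within each line and 0.00611 for a number common to both lines, and Fezf2 passed with the common number (0.0585 and 0.0309). Without Brg1+/+ mTEChi 1, the lowest Aire value in mTEChi, the wild-type difference of Aire was 2.48 and passed (adjusted p = 0.0271). Genotype by genotype, mTEChi exceeded mTEClo in Aire by 1.99 in Aire+/+, 2.65 in Aire-/-, 2.20 in Brg1+/+ and 1.73 in Brg1-/- cells. The same differences in Fezf2 were 0.94, 1.13, 1.03 and 0.84.

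The log2 difference between the cell types was larger for Aire than for Fezf2, and so was the SD within each cell type. On each array the log2 value of Fezf2 was subtracted from that of Aire, and the result ran from -0.42 to 0.85 in mTEChi and from -1.20 to -0.85 in mTEClo. The mTEChi arrays exceeded the mTEClo arrays by 1.16 in this quantity, and the exact two-sided permutation test over arrays gave p = 0.00404 (n = 8 and 4). The exact permutation tests of Aire and of Fezf2 alone gave the same p, which is the smallest that 8 against 4 arrays can give and stays the same after adjustment over these 3 tests. Among the arrays numbered 1 alone, the cell type difference in Aire minus Fezf2 was 0.95. Its exact permutation p was 0.0286 (n = 4 and 4), again the smallest possible.

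**Figure D2:**
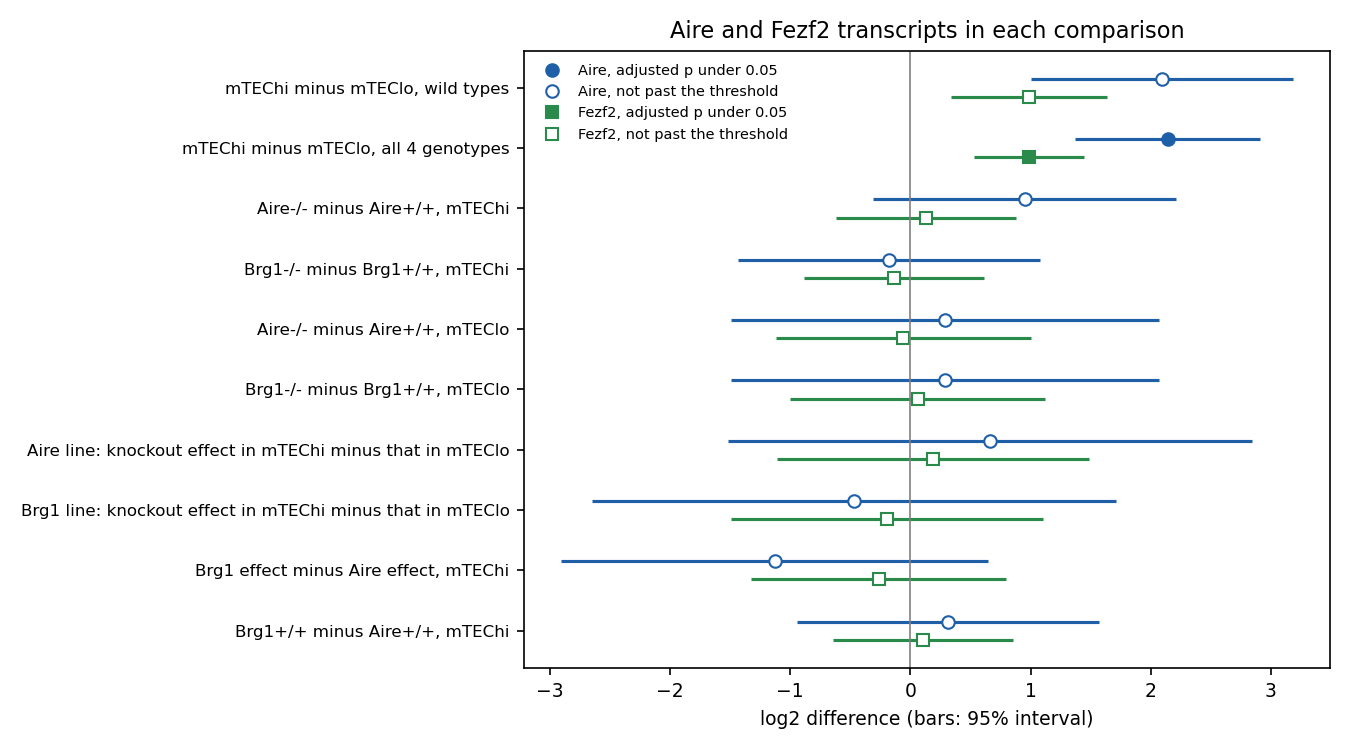
Log2 differences of Aire (circles) and Fezf2 (squares) with their 95% intervals in each comparison, fitted with limma over all 12 arrays. Filled symbols passed adjusted p under 0.05 over all genes. Only the average of mTEChi minus mTEClo over the 4 genotypes is filled, at 2.14 for Aire and 0.99 for Fezf2, and in this fit, without a block, the intervals of all knockout comparisons include 0.

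Both transcripts were also higher on the mTEChi arrays numbered 2 than on those numbered 1. In Aire, number 2 exceeded number 1 by 0.76 in Aire+/+, 0.72 in Aire-/-, 1.54 in Brg1+/+ and 0.40 in Brg1-/- mTEChi. In Fezf2 the differences were 0.52, 0.36, 0.59 and 0.30, so the sign was the same in 4 of 4 groups for both genes, as it was, upward, for 18.3% of all genes. In a fit with the number as a term, looked at after the values had been seen, the rise was 0.86 for Aire (SE 0.192, limma adjusted p = 0.0128) and 0.44 for Fezf2 (SE 0.129, adjusted p = 0.0322), where 33.1% of all genes were called and 11.7% were called higher.

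Since every mTEClo array is numbered 1, the cell types were also compared within that number. Aire was then 1.72 higher and Fezf2 0.77 higher in mTEChi, each with exact permutation p = 0.0286 (n = 4 and 4), the smallest that 4 against 4 arrays can give. The genotypes gave 1.61, 2.29, 1.43 and 1.53 for Aire in the order above and 0.68, 0.95, 0.74 and 0.69 for Fezf2. Every genotype therefore showed higher Aire and Fezf2 in mTEChi within number 1. Marker sums (linear intensity) moved in different directions. The 11 thymocyte markers summed to 458 to 527 in mTEClo, 595 to 883 in mTEChi numbered 1 and 807 to 2453 in mTEChi numbered 2. The 12 markers of dendritic cells, macrophages and B cells summed to 945 to 1085, 1234 to 1424 and 1781 to 1961 in the same order, a sum in which Lyz2 and Cd79b were the brightest, while Ptprc, which encodes CD45, was 0.66 lower in mTEChi (adjusted p = 0.0594). The sort took cells negative for CD45. The 11 fibroblast and endothelial markers summed to 1222 to 2518, 1029 to 1699 and 1023 to 1737, and the 7 tuft-like markers to 3257 to 4436, 777 to 1003 and 636 to 816. The 11 maturation markers of mTEC itself summed to 10844 to 12780, 16673 to 19575 and 21778 to 26379. The brightest in that sum were H2-Ab1, H2-Eb1, Ctss and H2-Aa. The H2 genes encode MHC class II, the basis of the sort, so the step in this sum between the cell types is not independent of it. Of the thymocyte markers, Cd3d, Cd8b1 and Cd3g were the brightest on Brg1-/- mTEChi 2, at 10.12, 8.92 and 8.58. All 11 were higher in mTEChi averaged over the genotypes, but Rag2, Ptcra and Themis only by 0.02, 0.03 and 0.01. None of the thymocyte, dendritic cell, macrophage, B cell, fibroblast or endothelial markers was called between mTEChi and mTEClo, where 3.67% of all genes were called higher and 2.11% lower. The part of these cells in the Aire and Fezf2 values was not tested. In sorted pools, more cells with a transcript and more transcript per cell cannot be told apart.

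In the Aire line, the Aire probe set was not lower on the arrays labelled Aire-/-. Within number 1 the Aire-/- mTEChi array exceeded the Aire+/+ array by 0.97, and within number 2 by 0.93. Both arrays labelled Aire-/- lay above both Aire+/+ arrays, as they did for 15.9% of all genes. The mean difference was 0.95 (SE 0.539, 95% interval from -0.31 to 2.21) and did not pass (limma, adjusted p = 1), where 0.794% of genes were called, 171 lower and 5 higher. With single arrays left out it ran from 0.57 to 1.33. With the array number as a block within each line, the interval was 0.28 to 1.62 and the adjusted p 0.222, so it did not pass either. In mTEClo the array labelled Aire-/- exceeded the Aire+/+ array by 0.29, with a 95% interval from -1.49 to 2.07. The deleted part of Aire and the place of the probes along the transcript were not given in the sources used here. The Aire value therefore neither checks the genotype label nor says that an intact transcript was made.

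Fezf2 differed little between the genotypes of the Aire line. The arrays labelled Aire-/- exceeded Aire+/+ by 0.21 within number 1 and by 0.05 within number 2 in mTEChi, and lay 0.06 lower in mTEClo. The mTEChi mean difference was 0.13 (SE 0.321), and its 95% interval from -0.62 to 0.88 corresponds to folds from 0.65 to 1.84. The sign turned without Aire+/+ mTEChi 1, to -0.13, and without Aire-/- mTEChi 2, to -0.05, so the data bound the size and give no direction. The summed intensity of 11 fibroblast and endothelial markers was 1023 to 1128 in Aire+/+ mTEChi and 1699 to 1737 in Aire-/- mTEChi. None of them was called, against 0.794% of all genes. Dcn gave most of that sum, with log2 values of 9.49 and 9.22 in the first group and 10.23 and 10.24 in the second, while Col3a1, Pdgfra and Cdh5 had lower means in the second. Cortical markers summed to 1371 to 1618 and 1867 to 2153, and the 5 SAND domain relatives to 699 to 919 and 1021 to 1118, in the same order. Sp100 was the brightest of these relatives. Of the 5, 3 had a higher mean in Aire-/- mTEChi, while Sp110 and Gmeb2 had a lower one. Tbata and Ccl25 were the brightest of the 8 cortical markers. Of these 8, 5 had a higher mean in Aire-/- mTEChi, while Psmb11, Cxcl12 and Dll4 had a lower one. None was called, against the same 0.794% of all genes. The part of these cells in the comparisons was not tested.

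In the Brg1 line, neither transcript passed the test. Aire in Brg1-/- mTEChi was 0.39 above Brg1+/+ within number 1 and 0.75 below it within number 2, so the pairs disagreed in sign. The mean difference was -0.18 (SE 0.539, 95% interval from -1.44 to 1.08). Fezf2 was 0.01 above Brg1+/+ within number 1 and 0.28 below it within number 2, with a mean of -0.14 (SE 0.321, interval from -0.89 to 0.62). Of all genes, limma called 0% in this comparison, and 301 of 22154 had an unadjusted p under 0.05. In mTEClo, Brg1-/- exceeded Brg1+/+ by 0.29 in Aire and by 0.06 in Fezf2. On the mTEChi arrays Smarca4 itself read 6.13 and 6.89 in Brg1+/+ and 5.88 and 5.44 in Brg1-/- cells, and on the mTEClo arrays 5.95 and 5.47. It was lower on each Brg1-/- array than on the Brg1+/+ array of the same cell type and number, and its mTEChi difference of -0.85 did not pass (limma, adjusted p = 1).

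Whether a knockout shifted Aire or Fezf2 differently in both cell types was also fitted. For Aire, the effect in mTEChi exceeded that in mTEClo by 0.66 in the Aire line (95% interval from -1.52 to 2.84) and was 0.47 lower in the Brg1 line (from -2.65 to 1.71). For Fezf2 these differences were 0.19 and -0.20 (intervals from -1.11 to 1.49 and from -1.49 to 1.10). The Brg1 effect in mTEChi was 1.13 lower than the Aire effect for the Aire transcript (from -2.91 to 0.65), and 0.27 lower for Fezf2 (from -1.33 to 0.80). With the array number as a block, the SE of the -1.13 was 0.404 within each line and 0.383 with a common number. It did not pass there either (limma, adjusted p = 0.45 and 0.361). With single arrays left out, the value of -1.13 ran from -1.90 to -0.36, and the 0.66 of the Aire line from 0.28 to 1.04. Both wild types differed by 0.31 in Aire and by 0.11 in Fezf2. None of these differences passed in the fit without a block (limma, adjusted p = 1). Called genes made up 0.135% in the comparison of the knockout effects in mTEChi, and 0% in both comparisons across cell types, in both knockouts within mTEClo and between the wild types, where 240 to 547 genes had an unadjusted p under 0.05. Each mTEClo group had 1 array, and its spread was taken from the mTEChi groups.

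Ordered by level, Aire was highest in Aire-/- mTEChi (mean 9.37), then Brg1+/+ (8.73), Brg1-/- (8.55) and Aire+/+ mTEChi (8.42). The 4 mTEClo groups followed at 6.82, 6.72, 6.53 and 6.43, in the order Brg1-/-, Aire-/-, Brg1+/+ and Aire+/+. Fezf2 ran from 8.70 in Aire-/- mTEChi over Brg1+/+ and Aire+/+ to 8.54 in Brg1-/- mTEChi, and from 7.70 to 7.57 in mTEClo. In both orders, each step between neighbouring mTEChi groups was smaller than the gap between the 2 arrays of either group. The step from the lowest mTEChi group to the highest mTEClo group was larger than that gap in every group.

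Aire and Fezf2 varied together among the 8 mTEChi arrays. Pearson's r was 0.876 (permutation p = 0.00623) and Spearman's rho 0.881 (permutation p = 0.00724). Without Brg1+/+ mTEChi 1 and Aire-/- mTEChi 2, the arrays farthest from the median of Aire, r was 0.854 (permutation p = 0.0306) and rho 0.829 (permutation p = 0.0583). Fezf2 lay between 8.31 and 8.52 on the arrays numbered 1 and between 8.69 and 8.97 on those numbered 2, so the relation carries the array number. After the mean of each number was subtracted, r was 0.819 (permutation p = 0.0136) and rho 0.833 (permutation p = 0.0154). These shuffles exchanged values across both numbers, so their p-values do not test the relation within a number. The 4 arrays within a number were too few for a value of their own. This was the single relation across arrays computed with a test.

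Genes were then ranked by how closely their log2 values followed each transcript over all 12 arrays, among 12046 named protein-coding genes with an SD of at least 0.25. The points share the cell type and the number as sources of variation, so the values are descriptions without a test. For Aire the highest r belonged to Creld2 (0.982), an endoplasmic reticulum protein, S100a3 (0.982), a calcium-binding S100 protein, Ufsp1 (0.982), a protease of the UFM1 system, Akr1c12 (0.981), an aldo-keto reductase, and Crip3 (0.979), a LIM domain protein. For Fezf2 it belonged to Ufsp1 (0.986), Lrrc42 (0.985), S100a3 (0.984), Bspry (0.981) and Ctss (0.981), the last a protease that trims the invariant chain of MHC class II. S100a3 and Ufsp1 stood in both lists.

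The members followed each other almost as closely, with r = 0.974, which put Fezf2 at rank 9 for Aire and Aire at rank 12 for Fezf2. S100a3 shows the shared pattern. It measured 9.94, 10.86, 10.05 and 10.21 on the mTEChi arrays numbered 1 of Aire+/+, Aire-/-, Brg1+/+ and Brg1-/-, and 11.28, 11.75, 11.41 and 10.85 on those numbered 2. In mTEClo it lay between 7.99 and 8.65. These names depend on the measure: by Spearman's rho 1 of the 5 stayed among the top 5 for Aire and 2 for Fezf2, and over the 8 arrays numbered 1 none did for either, although 5 and 3 remained among the top 50.

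**Figure D3:**
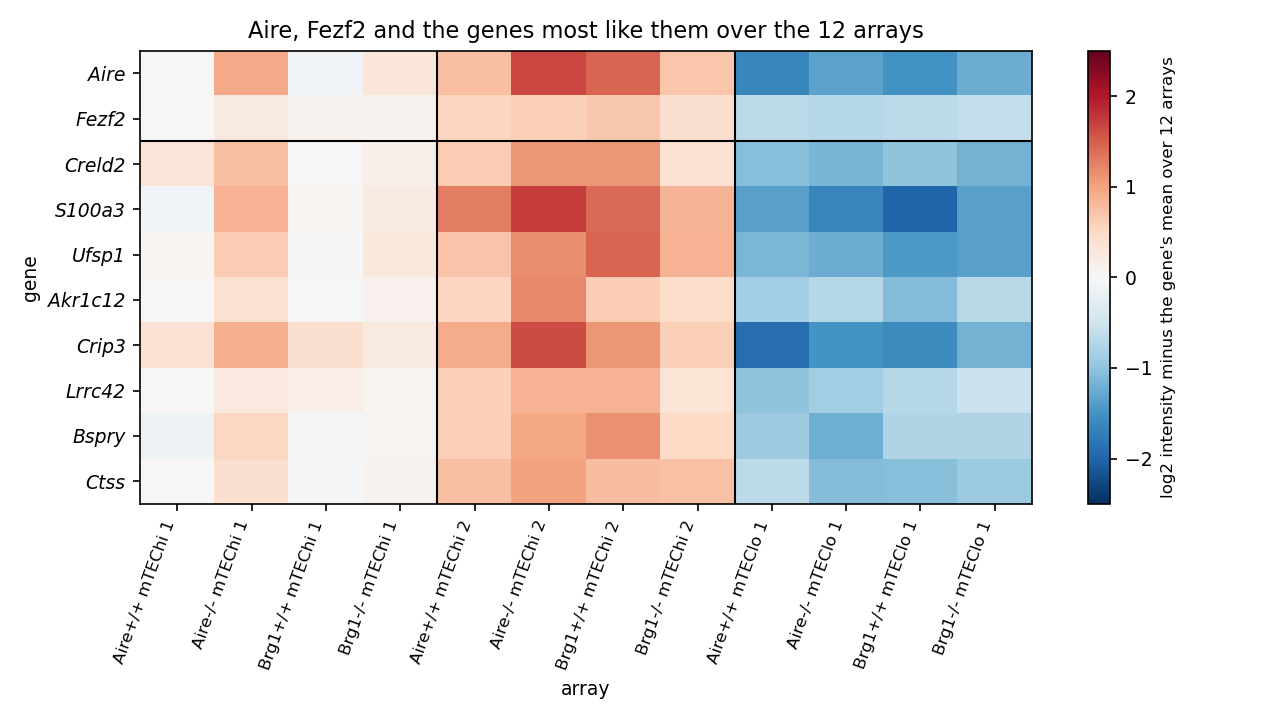
Log2 intensity minus each gene's mean over the 12 arrays, as colour, for Aire, Fezf2 and the 8 genes with the highest Pearson r to either. Lines part the mTEChi arrays numbered 1, those numbered 2 and the mTEClo arrays. Every gene shown is lower on the 4 mTEClo arrays than on any mTEChi array, and each is highest on Aire-/- mTEChi 2 or Brg1+/+ mTEChi 2.

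Next to Aire on chromosome 10 lies Dnmt3l, a regulator of DNA methylation in germ cells, whose gene model overlaps that of Aire by 1324 bases. Dnmt3l measured 6.03 and 6.39 in Aire+/+, 6.68 and 7.60 in Aire-/-, 5.81 and 6.68 in Brg1+/+ and 6.22 and 6.34 in Brg1-/- mTEChi. In mTEClo it measured 5.22, 5.45, 5.38 and 5.22 in the same order of genotypes. The 8 mTEChi arrays stood in the same order in Dnmt3l as in Aire, with Aire-/- mTEChi 1 and Brg1+/+ mTEChi 2 level in Dnmt3l, which was seen after the values were known. Averaged over the genotypes it was 1.15 higher in mTEChi (SE 0.248, limma adjusted p = 0.0387), and on the arrays labelled Aire-/- 0.93 higher than in Aire+/+ mTEChi (SE 0.405, adjusted p = 0.95). Since the models overlap, signal of one gene in the probe set of the other cannot be told apart here.

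The next 2 genes on that side, Icosl, a costimulatory ligand, and Gatd3a, and the 3 on the other, Pfkl, Cfap410 and Trpm2, did not pass, with differences from -0.42 for Cfap410 to 0.54 for Icosl. Next to Fezf2 on chromosome 14 lies Cadps, an activator of vesicle exocytosis in nerve and endocrine cells, and it was 1.10 higher in mTEChi (SE 0.146, limma adjusted p = 0.00531). It lay between 5.94 and 6.81 in mTEChi and between 5.23 and 5.39 in mTEClo. It was also called with the wild types alone, with 1.23 (SE 0.206, adjusted p = 0.0265). The other 5 genes around Fezf2, 3830406C13Rik, Ptprg, Mnd1-ps, Gm5087 and Synpr, did not pass, with differences from -0.17 to 0.02. In all, 2 of the 12 nearest measured genes were called in this comparison, each the immediate neighbour on the side of rising coordinates, against 3.67% of all genes called higher.

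**Figure D4:**
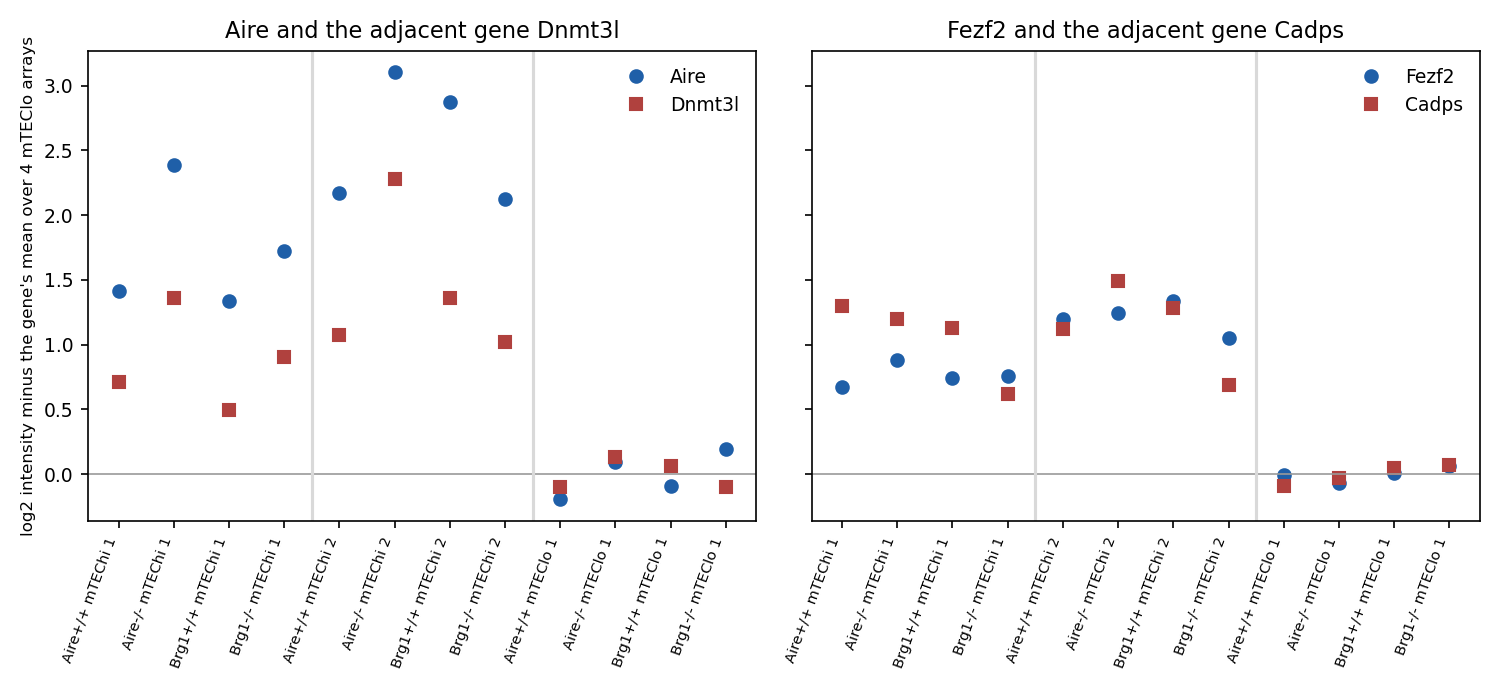
Log2 intensity minus the gene's own mean over the 4 mTEClo arrays, on each array, for Aire and Dnmt3l (left) and Fezf2 and Cadps (right). Lines part mTEChi numbered 1, mTEChi numbered 2 and mTEClo. Over the mTEChi arrays Dnmt3l follows the order of Aire at a lower height, which it does not over the mTEClo arrays, and number 2 exceeds number 1 by 0.08 in Cadps and by 0.44 in Fezf2.

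Fezf1, the paralogue of Fezf2, did not follow it. Fezf1 lay between 5.57 and 7.20 in mTEChi and between 6.97 and 7.58 in mTEClo, a difference of -0.97 that did not pass (SE 0.388, limma adjusted p = 0.218). Fezf1 differed by -1.10 between the mTEChi arrays numbered 2 and those numbered 1 (adjusted p = 0.00305), and within number 1 its cell type difference was -0.42. Of 6 listed relatives of Aire that share its SAND domain, a DNA-binding fold, 5 were measured and none was called. Of all genes, 3.67% were called higher and 2.11% lower, so 0 of 5 says little. Sp100, a nuclear body protein, was 0.56 higher (adjusted p = 0.253), Deaf1, a transcription factor, 0.33 lower (adjusted p = 0.269), Gmeb2 0.16 higher, Gmeb1 0.07 lower and Sp110 0.07 lower in mTEChi. The median of the 5 was -0.07, against -0.10 over all genes.

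Of 22 listed genes that carry the inducing signal from RANK, CD40 and the lymphotoxin beta receptor to NF-kB, 19 were measured. In mTEChi 1 was higher than in mTEClo and 0 were lower, a share near the 3.67% called higher over all genes, and their median difference was 0.21 against -0.10 over all genes. The gene called was Cd40, the receptor for CD40 ligand, which lay between 7.46 and 7.97 in mTEChi and between 6.42 and 6.69 in mTEClo, a difference of 1.09 (SE 0.154, adjusted p = 0.00707). The next by p did not pass: Nfkb2, the precursor of p52, was 1.21 higher (SE 0.333, adjusted p = 0.0883), Traf6, an adaptor of RANK and CD40, 0.97 higher (SE 0.26, adjusted p = 0.0838), and Relb, the partner of p52, 0.64 higher (SE 0.17, adjusted p = 0.0825). The receptor RANK, Tnfrsf11a, differed by 0.21 (adjusted p = 0.434), and its ligand Tnfsf11 by 0.35 (adjusted p = 0.398). Within the arrays numbered 1, the difference was 0.77 for Nfkb2, 0.75 for Traf6 and 0.49 for Relb. There it was 1.03 for Cd40, 0.22 for Tnfrsf11a and 0.09 for Tnfsf11.

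Of 18 listed regulators of the Aire transcript or protein, 15 were measured, and 1 was higher and 0 lower in mTEChi, with a median of 0.09, where 3.67% of all genes were called higher and 2.11% lower. Sirt1, a deacetylase known to act on Aire protein, lay between 7.25 and 7.74 in mTEChi and between 5.77 and 6.58 in mTEClo, a difference of 1.32 (SE 0.146, adjusted p = 0.00253), and it passed with the wild types alone as well (1.31, adjusted p = 0.0203). Top2b, a topoisomerase, was 0.94 lower (adjusted p = 0.207), Crebbp 0.73 lower (adjusted p = 0.372) and Ep300, an acetyltransferase like Crebbp, 0.46 lower (adjusted p = 0.409), and none of these passed. Within the arrays numbered 1 these 3 differences were -0.41, -0.11 and -0.06, in the order Top2b, Crebbp and Ep300, while that of Sirt1 was 1.35. Between the numbers in mTEChi, 4 of the 15 regulators were called higher and 6 lower on the arrays numbered 2, where 33.1% of all genes were called.

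Of the maturation markers, 5 of 11 measured genes were higher over all genotypes and 3 with the wild types alone, where 3.67% and 1.93% of all genes were called higher. Cd40 is in both counts and was already counted in the pathway list. Tnfrsf11a, not called, also stands on both lists. Cd80 and Cd86, costimulatory ligands for T cells, were 2.97 (SE 0.267) and 2.41 (SE 0.239) higher, more than Aire itself. Ctss was 1.40 higher (SE 0.261) and H2-Eb1, a chain of MHC class II, 1.04 higher (SE 0.213), close to Fezf2. MHC class II was the basis of the sort, so its genes are not independent of it. Of all genes on these 4 lists, none was called in Aire-/- against Aire+/+ or in Brg1-/- against Brg1+/+ mTEChi. Over all genes the shares called there were 0.794% and 0%, so these counts say little about the lists.

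**Figure D5:**
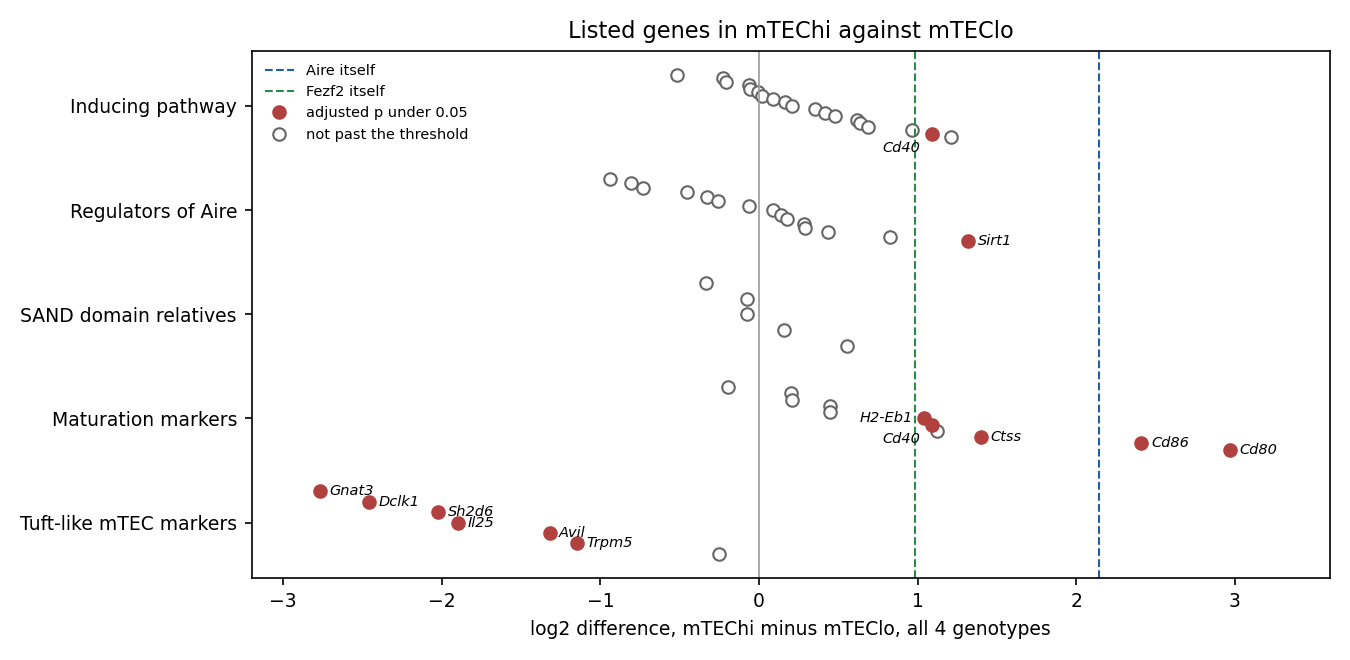
Log2 difference of mTEChi minus mTEClo over all 4 genotypes for each measured gene of 5 lists (1 point a gene, filled where adjusted p was under 0.05). Dashed lines stand at Aire (2.14) and Fezf2 (0.99). Cd40 and Sirt1 are the filled points of the pathway and regulator lists. The 5 filled maturation markers, Cd40 again among them (and H2-Aa, not filled), lie right of the Fezf2 line, and 6 tuft-like markers lie left of -1.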

How the data were processed

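Per the labels' protocols, RNA of sorted mTEC was extracted with Trizol LS and biotin-labelled. The authors deposited a table of 33732 probe sets with 1 linear intensity per array. Per the submitters' processing notes, Affymetrix Expression Console, Transcriptome Analysis Console and RMA were used, without versions or order. Log2 of each deposited intensity was used as it stood, with no pseudocount. No detection call was used, so background may compress the difference of a gene that is dim in mTEClo. Probe sets with 1 gene symbol (23491) were kept, those with several (1811) or none (8430) were not, and each gene was represented by its brightest probe set, which set 1337 aside and left 22154 genes.

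Groups follow genotype, cell type and number in the labels. One model of 8 group means over the 12 arrays was fitted in R 4.3.3 with limma 3.58.1 (lmFit, eBayes), two-sided, with Benjamini-Hochberg adjustment over all genes and a threshold of 0.05. The code of this fit was tested on simulated data without any difference between array numbers, so that test does not cover such a difference. SE is the moderated one, and intervals are 95%. Alternatives were the number as a block, centring or common quantiles, dim genes removed, the mean of probe sets, trended robust eBayes, mTEChi alone and each mTEChi array left out. Only the permutation tests were also run with each mTEClo array left out.

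The array numbers were taken to pair the mTEChi groups, because the difference of number 2 from number 1 correlated over genes in every pair of groups (r from 0.552 to 0.657).

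Members, gene lists and tests were chosen with earlier results of these data known. Named genes were both members, Smarca4, Fezf1, the SAND domain relatives, the 3 nearest measured genes on each side by a RefSeq gene table, the 5 genes most like each member among genes with an SD of at least 0.25, and up to 4 genes with the smallest wild-type p of each described list. Genes named beyond these were Tnfrsf11a, Tnfsf11, H2-Eb1, H2-Aa, H2-Ab1, Cd79b, Cd8b1, Rag2, Ptcra, Themis, Psmb11, Dll4, Col3a1, Pdgfra and Cdh5. Those named for a count of 5 or fewer were also beyond them. All of these were chosen after their values were seen. Promoter windows come from RefSeq (GRCm38.p6), where both members matched.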

Additional observations from a re-analysis of the deposited data

Results flagged for a closer look

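In mTEClo, the knockout difference of Fezf2 had opposite signs in the lines, -0.06 in the Aire line and 0.06 in the Brg1 line, a gap of 0.12 on the log2 scale with 1 array on each side. It stands out only because the signs differ, and the gap itself was not tested.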

How the results depend on the processing

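Groups hold at most 2 arrays, so knockout effects are bounded and not settled in size, and no detection call limits what dim values mean. Of 371 recomputed values, 343 were labelled as unchanged. This meant the same direction and side of the threshold, or most names shared for the lists of genes most like each member. Many could not change direction, such as mTEClo differences when an mTEChi array was left out, so the share is no measure of robustness. With the replicate number as a block within each line, the wild-type rise of Aire in mTEChi was 1.67 and passed (limma, adjusted p = 0.0123); with the number common to both lines it was 1.67 (adjusted p = 0.00611) and that of Fezf2 0.77 (adjusted p = 0.0309). No other call on Aire or Fezf2 changed under a block. Under the block within each line, called genes went from 567 to 1534 (mTEChi against mTEClo, wild types), from 1280 to 2461 (all genotypes), from 176 to 531 (Aire-/- in mTEChi), from 0 to 3 (Aire-/- in mTEClo), from 0 to 63 (Aire line across cell types) and from 30 to 201 (Brg1 against Aire effect). With the common number they were 1757, 2763, 569, 7, 66 and 228. The Brg1 against Aire count was 48 after centring and 46 with dim genes removed. With common quantiles the Fezf2 knockout differences in mTEClo were 0.063 in the Aire line and -0.003 in the Brg1 line, both turned. Common quantiles also called 1 gene, and removal of dim genes 2, for Aire-/- in mTEClo.

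With single mTEChi arrays left out, the Aire wild-type rise ran from 1.71 to 2.48 and the Fezf2 rise over all genotypes from 0.91 to 1.06. Signs turned for the Aire-/- effect on Fezf2 (-0.13 to 0.39), the Brg1-/- effect on Aire (-0.95 to 0.59) and on Fezf2 (-0.43 to 0.16), the cell type difference of the Aire-/- effect on Fezf2 (-0.07 to 0.45) and of the Brg1-/- effect on Aire (-1.24 to 0.30) and Fezf2 (-0.49 to 0.10), the Brg1 against Aire effect on Fezf2 (-0.56 to 0.03), and the wild types of both lines in Aire (-0.46 to 1.08) and Fezf2 (-0.19 to 0.40). Called genes ran from 307 to 470 (wild types, mTEChi against mTEClo), from 53 to 184 (Aire-/-) and from 4 to 28 (Brg1 against Aire effect). The causes were not tested.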
